A study of Mus musculus with 6 samples.

Results

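The Tomm and Timm genes encode the translocases that carry proteins into mitochondria. They were taken here as every row of the deposited table whose symbol begins with Tomm or Timm followed by a digit, pseudogene names aside, with a level above 0 in at least 3 of the 6 libraries. There were 24 such rows of 23314 in all, with 23 symbols, since Timm10b stands on 2 rows. All but one are protein coding; Tomm6os is a transcript on the strand opposite to Tomm6.

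Nearly all mitochondrial proteins are made in the cytosol and imported. Precursors are recognised by receptors of the outer membrane complex TOM (Tomm20, Tomm22 and Tomm70a) and pass through its channel, Tomm40, which the small subunits Tomm5, Tomm6 and Tomm7 help to assemble and hold. The TIM23 complex of the inner membrane then takes precursors with a targeting sequence into the matrix, whereas the small Tims escort hydrophobic carrier proteins across the intermembrane space to Timm22, which inserts them into the inner membrane. Skeletal muscle is rich in mitochondria and relies on this route for its respiratory chain and metabolite carriers.

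RNA was sequenced from the quadriceps, the large thigh muscle, of mice aged 2 months. Control mice, called MyoCre, had the genotype Myogenin-Cre/+, a Cre recombinase driven by Myogenin, which is switched on as muscle cells differentiate. The knockout, called K15SKO, had the genotype Myogenin-Cre/+;K15F/F, that is, the same Cre with floxed Klf15, a Krüppel-like transcription factor; both groups therefore carry Cre. Each group held 3 libraries, numbered as in the labels, although the design text gives n = 4. Separate animals are not stated, so that p-values cover only the spread among these libraries, which may be technical. Muscle also holds cells in which Myogenin is not active and Klf15 would stay intact.

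Levels are FPKM, which scale a gene's fragments by transcript length and by the library's mapped fragments. Klf15, the deleted gene, read 35.2, 28.4 and 30.5 FPKM in the MyoCre libraries and 2.22, 21.7 and 5.32 FPKM in the K15SKO libraries, so that the library labelled K15SKO 2 was below every MyoCre library but nearer to them than to K15SKO 1 and 3 (exact two-sided permutation p = 0.1, the smallest that 3 against 3 allow). The 10 skeletal muscle markers were above 0 in every library and summed to 34925 to 39863 FPKM in MyoCre and to 30857, 27264 and 44896 FPKM in K15SKO. The summed level of 12 liver genes was 65.2, 5391 and 12.0 FPKM in K15SKO 1 to 3 against 1.1 to 3.83 in MyoCre, where up to 5 of the 12 were listed at 0. The sum of 10 macrophage genes was 377, 211 and 40.3 FPKM in K15SKO 1 to 3 against 44.2 to 52.8 in MyoCre, and 8 adipocyte genes summed to 76.8 to 159 FPKM against 247 to 608. Slow-fibre genes, a list of 8, summed to 752, 219 and 1027 FPKM in K15SKO 1 to 3 against 39.6 to 268, and 5 blood genes to 75.4 to 467 FPKM against 95.7 to 598. K15SKO 3 correlated more closely with the MyoCre libraries (Pearson 0.968 to 0.975 over all genes tested) than with K15SKO 1 and 2 (0.942 and 0.880). In this bulk tissue, fewer cells of a type and less RNA per cell cannot be told apart. Absolute depth is unknown; read from the steps between low values, it was 0.779 to 1.56 times that of MyoCre 1.

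The question put to the import genes was how their transcripts stand in quadriceps of the K15SKO genotype. Among the import genes, the outer membrane subunits Tomm5 and Tomm22 and the inner membrane genes Timm22 and Timm10b stood higher in K15SKO, and the cytosolic cochaperone Tomm34 stood lower, in every K15SKO library against every MyoCre library as deposited. None of these differences passed the test across all genes. For Tomm5 and Tomm22 the groups overlapped once the libraries were scaled to the same sum, but not with median-of-ratios rescaling. The receptors Tomm20 and Tomm70a and the inner membrane TIM23 gene Timm17b were among the members that differed by less than 0.1 on the log2 scale. The 23 rows with a mean of at least 1 FPKM were tested with limma on log2(FPKM + 1), a scale that understates the change of low genes; Tomm6os lay below that mean. Of the 23, 0 passed an adjusted p of 0.05 (Benjamini-Hochberg over all genes), where 6 of 11607 genes, 0.0517%, did so. At an unadjusted p under 0.05, 4 of the 23 were higher (Tomm5, Tomm22, Timm22 and Timm10b) and 1 was lower (Tomm34), against 8.43% and 8.12% of all genes tested, and 16.5% in either direction.

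For 8 of the 23, all K15SKO values lay above all MyoCre values, as for 13.4% of all genes tested, and for 1 they lay below, as for 11.3%. The 8 were Tomm5, Tomm22, Tomm40, Tomm40l, Timm22, Timm10, Timm10b and Timm13. In all, 17 of the 23 log2 differences were above 0, where 48% of all genes were, and their median was 0.18 against −0.02 for all 11607 genes. Adjusted p of the members ran from 0.269 to 0.996 (limma). Without the library labelled K15SKO 2, where the liver sum was highest, 0 members passed the adjusted p (limma; 0.0345% of all genes), and 5 were higher and 1 lower at an unadjusted p under 0.05, where 6.16% and 4.98% of all genes were. In that setting 10 were higher and 1 lower without overlap, against 18% and 14.4% of all genes, and the median was 0.23.

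These counts depended on scaling. The column sum of K15SKO 3 was 466756 FPKM where the other libraries had 396375 to 423214, and a rescaling of every library to the same sum was added after the data had been seen. On that scale 4 members (Timm10b, Timm50, Timm22 and Tomm40l) were higher without overlap, against 6.55% of all genes, and Tomm34 was lower, against 22.7%. At an unadjusted p under 0.05, 1 member was higher (Tomm5) and 1 lower (Tomm34), against 4.23% and 16.6% of all genes, 0 passed the adjusted p (limma; 0.0603% of all genes), and the median over the members was 0.13.

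**Figure D1:**
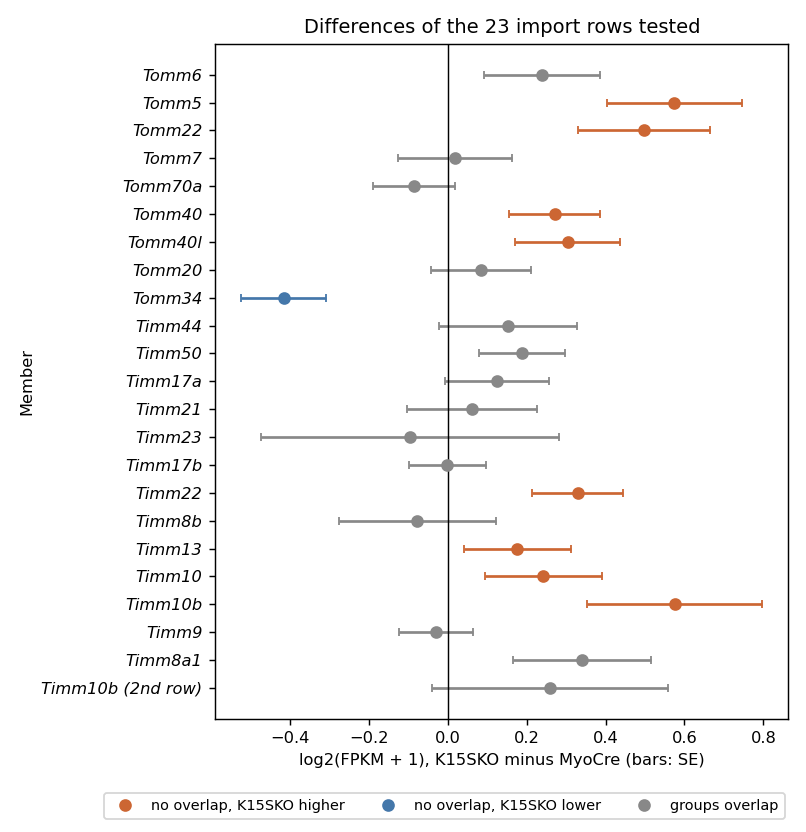
Log2 difference, K15SKO minus MyoCre on log2(FPKM + 1), of the 23 import rows tested, with bars of 1 SE from limma. Orange points, the 8 rows whose K15SKO values all lie above MyoCre as deposited, sit between 0.18 and 0.58, and Tomm34 alone is blue at −0.42.

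The promoters of the members with the smallest unadjusted p, Tomm34, Tomm5 and Tomm22, are shown because these were also the members that passed the threshold in an alternative fit with array weights. Each window runs from 250 bases before to 50 after the RefSeq start site (GRCm38.p6), 5′ to 3′ on the strand of the gene. Capitals mark the letters CACCC or, on the other strand, GGGTG, which Krüppel-like factors can bind. Tomm5 is at chr4:45108064-45108363 on the minus strand, Tomm22 at chr15:79670618-79670917 on the plus strand and Tomm34 at chr2:164071053-164071352 on the minus strand, one of 2 windows that overlap. The other, at chr2:164071120-164071419, has its start site at the 5′ end of the gene in GENCODE (164071169). The start site of the window shown lies inside the gene.
Tomm5: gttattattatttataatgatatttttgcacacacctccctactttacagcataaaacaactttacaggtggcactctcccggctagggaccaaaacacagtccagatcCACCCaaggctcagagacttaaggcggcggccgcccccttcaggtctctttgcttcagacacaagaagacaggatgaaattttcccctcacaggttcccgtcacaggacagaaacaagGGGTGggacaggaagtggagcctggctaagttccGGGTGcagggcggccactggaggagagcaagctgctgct
Tomm22: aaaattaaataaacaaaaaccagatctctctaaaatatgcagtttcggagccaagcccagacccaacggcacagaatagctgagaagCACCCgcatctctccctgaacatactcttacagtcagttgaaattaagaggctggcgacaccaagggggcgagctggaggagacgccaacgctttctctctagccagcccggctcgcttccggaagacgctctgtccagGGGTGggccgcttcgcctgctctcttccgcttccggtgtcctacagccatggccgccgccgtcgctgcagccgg
Tomm34: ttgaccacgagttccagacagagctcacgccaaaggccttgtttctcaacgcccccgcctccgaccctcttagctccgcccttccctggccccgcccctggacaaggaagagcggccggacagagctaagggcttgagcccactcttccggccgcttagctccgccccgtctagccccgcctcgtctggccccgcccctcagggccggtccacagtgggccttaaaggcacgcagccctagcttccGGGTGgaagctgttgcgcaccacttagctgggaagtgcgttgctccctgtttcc
These windows hold 3, 2 and 1 matches, and the other Tomm34 window holds 0. A match was found in 13 of 22 member windows (59.1%) and in 57.5% of all 32851 windows, so that the letters were about as frequent in promoters at large. A match is a description of the sequence and not a measured binding site.

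In the TOM complex, Tomm5 showed the largest difference. This short subunit, which lies on chromosome 4 from 45105208 to 45108114 (GENCODE M21 on GRCm38, as for all genes here), supports assembly of the channel. Its level was 53.2, 48.9 and 50.1 FPKM in MyoCre against 94.2, 76.3 and 61.0 in K15SKO, always given for libraries 1, 2 and 3 in turn. All K15SKO values lay above all MyoCre values, and the mean was 152% of the MyoCre mean (log2 difference 0.57, SE 0.17, limma adjusted p = 0.272). With equal column sums, K15SKO 3 was 54.1 FPKM where MyoCre 1 was 55.2. Tomm22, the central receptor that joins the channels (chromosome 15, 79670861 to 79673400), was at 48.3, 52.4 and 44.6 FPKM in MyoCre against 85.3, 65.7 and 57.6 in K15SKO. The order of the K15SKO libraries was the same as for Tomm5, with 1 the highest and 3 the lowest, and the groups did not overlap (log2 difference 0.50, SE 0.17, adjusted p = 0.279). With equal column sums, K15SKO 3 was 51.1 FPKM where MyoCre 2 was 54.6. The groups of both Tomm5 and Tomm22 stayed separate with median-of-ratios rescaling.

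Tomm40, the channel itself (chromosome 7, 19701313 to 19715438), was at 18.2, 17.6 and 21.6 FPKM in MyoCre against 24.8, 22.1 and 22.8 in K15SKO. As deposited the groups were separate by a narrow margin, since MyoCre 3 came close to K15SKO 2 (log2 difference 0.27, SE 0.11, limma adjusted p = 0.305). With equal column sums they overlapped, since K15SKO 3 was 20.2 FPKM where MyoCre 3 was 21.1. They stayed separate with median-of-ratios rescaling. Its paralogue Tomm40l was nearly as abundant as Tomm40, at 17.2, 15.9 and 16.8 FPKM in MyoCre against 22.6, 17.2 and 22.9 in K15SKO. Here K15SKO 2 stood at the MyoCre level (log2 difference 0.30, SE 0.13, adjusted p = 0.310). Tomm40l shares 3304 of its 5135 exonic bases with Nr1i3, a nuclear receptor gene on the opposite strand, and no source used here says that strand was counted. Nr1i3 was at 5.79 FPKM in K15SKO 2 and at 0.0406 to 0.148 FPKM in the other libraries; its part in the Tomm40l values was not tested.

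Tomm20, a receptor that binds targeting sequences (chromosome 8, 126930667 to 126945844), was at 6.82, 7.41 and 5.58 FPKM in MyoCre against 7.76, 6.49 and 6.87 in K15SKO, so that the groups overlapped (log2 difference 0.08, SE 0.13). Tomm70a, the receptor for carrier precursors with bound chaperones (chromosome 16, 57121703 to 57156705), was at 24.1, 28.1 and 26.7 FPKM in MyoCre against 23.4, 25.1 and 25.6 in K15SKO. Its K15SKO values were all below the MyoCre mean but within or close to the MyoCre range (log2 difference −0.09, SE 0.10). Of the other small subunits, Tomm6 was at 102 ± 13.5 FPKM against 86.4 ± 8.88 and Tomm7 at 44.1 ± 6.19 against 43.5 ± 5.07 (SD, n = 3 each), both with overlap. Tomm6 shares 859 of 1131 exonic bases with the annotated gene Gm21981 on its own strand, whose mean was 0.354 FPKM for MyoCre and 0.306 for K15SKO. Summed over the 8 TOM genes, the level was 300.2, 296 and 297 FPKM in MyoCre and 423, 359 and 325 FPKM in K15SKO, without overlap. With equal column sums it was 291 to 311 FPKM in MyoCre and 437, 375 and 288 FPKM in K15SKO, so that K15SKO 3 was then the lowest of all libraries. With median-of-ratios rescaling the sum was 285 to 306 in MyoCre and 437, 375 and 314 in K15SKO, without overlap.

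Tomm34 was the single member lower in K15SKO without overlap. Despite its name it encodes a cytosolic protein that works with Hsp70 and Hsp90 chaperones on precursors before import (chromosome 2, 164053540 to 164071169). It was at 8.07, 8.82 and 8.25 FPKM in MyoCre against 5.27, 6.68 and 6.21 in K15SKO, 72.2% of the MyoCre mean. The MyoCre values lay close together and the lowest value was that of K15SKO 1 (log2 difference −0.42, SE 0.11, limma adjusted p = 0.269).

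**Figure D2:**
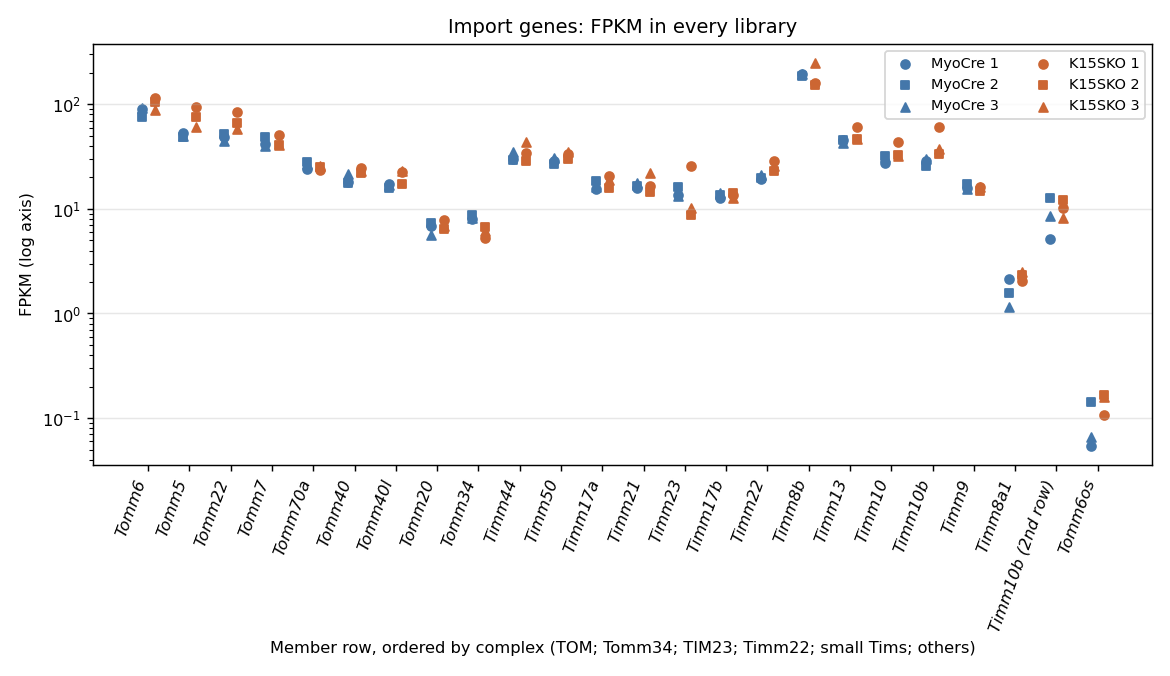
FPKM on a log axis for all 24 rows, ordered by complex, with one point per library (blue, MyoCre; orange, K15SKO; circle, square and triangle for libraries 1 to 3). Timm8b stands highest at 155 to 248 FPKM and Tomm6os lowest at 0.0545 to 0.166 FPKM, and the K15SKO values of Timm23 run from 8.68 to 25.9 FPKM.

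The TIM23 complex gave no member without overlap as deposited. Timm23, its channel-forming core (chromosome 14, 32180162 to 32201898), was at 13.5, 16.4 and 13.2 FPKM in MyoCre against 25.9, 8.68 and 10.3 in K15SKO. One K15SKO library stood above and the others below every MyoCre value, a coefficient of variation of 63.6% in K15SKO against 12.0% in MyoCre. The mean of FPKM was therefore higher in K15SKO while the log2 difference was −0.10 (SE 0.38, limma adjusted p = 0.893). Without K15SKO 1, the log2 difference was −0.55; without K15SKO 2 it was 0.19.

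Timm17a and Timm17b are alternative partners of Timm23 in the complex. Timm17a (chromosome 1, 135295213 to 135313778) was at 15.7, 18.4 and 16.2 FPKM in MyoCre against 20.8, 15.7 and 18.8 in K15SKO. Timm17b (chromosome X, 7899357 to 7908351) was at 12.8, 13.6 and 14.3 FPKM in MyoCre against 13.7, 14.3 and 12.6 in K15SKO, with equal group means to 3 digits of 13.5 FPKM. Their ratio was 1.24 ± 0.110 in MyoCre and 1.37 ± 0.237 in K15SKO (SD, n = 3 each), with overlap. For Timm17a, K15SKO 1 and 3 lay above every MyoCre value and K15SKO 2 within their range. Neither gene passed the test (adjusted p = 0.596 and 0.996, limma).

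Timm50, the receptor that hands precursors from TOM to the inner channel (chromosome 7, 28305516 to 28312072), was at 28.6, 27.0 and 30.5 FPKM in MyoCre against 33.6, 30.0 and 35.1 in K15SKO. As deposited, K15SKO 2 lay inside the MyoCre range and the other K15SKO libraries above it (log2 difference 0.19, SE 0.11, limma adjusted p = 0.382). With equal column sums the groups did not overlap, at 31.2 to 34.7 FPKM in K15SKO against 28.1 to 29.8 in MyoCre. They were also separate with median-of-ratios rescaling. Timm44, which tethers the import motor chaperone to the channel (chromosome 8, 4259731 to 4275913), was at 30.2, 29.1 and 35.3 FPKM in MyoCre against 34.5, 28.5 and 43.8 in K15SKO, again with K15SKO 2 lowest. Timm21, which links TIM23 to TOM, was highest in K15SKO 3 too, at 17.7 ± 4.06 FPKM in K15SKO against 16.6 ± 0.824 in MyoCre (SD, n = 3 each).

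In the carrier pathway, Timm22, the insertase of the inner membrane (chromosome 11, 76406952 to 76416292), was at 19.4, 19.9 and 21.3 FPKM in MyoCre against 28.6, 22.9 and 25.6 in K15SKO. The groups did not overlap, also with equal column sums, and the mean was 127% of the MyoCre mean (log2 difference 0.33, SE 0.11, limma adjusted p = 0.280). Timm10b, the small Tim that docks at Timm22 (chromosome 7, 105640056 to 105643637), was at 28.6, 25.9 and 29.9 FPKM in MyoCre against 60.1, 33.6 and 37.6 in K15SKO, 155% of the MyoCre mean. K15SKO 1 stood far above the rest, and the log2 difference of 0.58 (SE 0.22, adjusted p = 0.290) was 0.33 without it. A second row named Timm10b in the table is called Gm45799 in GENCODE M21; it reaches from Timm10b into Dnhd1 and shares 376 exonic bases with Timm10b, so that reads may have been split between the rows. That row was at 5.14, 12.7 and 8.54 FPKM in MyoCre against 10.2, 12.2 and 8.26 in K15SKO, with overlap.

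The small Tims that carry precursors across the intermembrane space were less uniform. Timm9 and Timm10 form one ring-shaped chaperone. Timm9 (chromosome 12, 71123173 to 71136684) was at 15.8, 17.1 and 15.6 FPKM in MyoCre against 16.3, 14.9 and 16.3 in K15SKO, with overlap. Timm10 (chromosome 2, 84826997 to 84830213) was at 27.4, 31.8 and 31.2 FPKM in MyoCre against 43.3, 32.8 and 32.1 in K15SKO. The groups of Timm10 did not overlap as deposited, but did with equal column sums, and K15SKO 2 and 3 exceeded MyoCre 2 by less than 1 FPKM (log2 difference 0.24, SE 0.15, limma adjusted p = 0.402). The ratio of Timm10b to Timm10 was 1.19 ± 0.183 in K15SKO and 0.939 ± 0.117 in MyoCre (SD, n = 3 each), with overlap.

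Timm8b and Timm13 form a second chaperone of this kind. Timm8b was the most abundant member, at 196, 187 and 197 FPKM in MyoCre against 160, 155 and 248 in K15SKO (chromosome 9, 50603910 to 50605320). K15SKO 1 and 2 stood below and K15SKO 3 above every MyoCre value, so that the log2 difference was −0.08 (SE 0.20). It was 0.02 without K15SKO 1, 0.04 without K15SKO 2 and −0.29 without K15SKO 3, where it passed (limma adjusted p = 0.0460), as did 23.6% of all genes tested. Timm13 was at 51.1 ± 8.02 FPKM in K15SKO against 44.8 ± 2.08 in MyoCre (SD, n = 3 each); the groups did not overlap as deposited, but did with equal column sums, and K15SKO 2 was 46.4 FPKM where MyoCre 1 was 46.1. Timm8a1, the paralogue of Timm8b linked to deafness-dystonia syndrome in people, was near the low end at 1.62 ± 0.504 FPKM in MyoCre and 2.29 ± 0.238 in K15SKO (SD, n = 3 each). The ratio of Timm8a1 to Timm8b was 0.00840 in MyoCre and 0.0126 in K15SKO, with overlap. Tomm6os was at 0.0873 ± 0.0473 FPKM in MyoCre and 0.144 ± 0.0332 in K15SKO and was not tested.

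FPKM is a level per length, so the members can be ordered among themselves. In MyoCre, Timm8b stood at 193 ± 5.36 FPKM, Tomm6 at 86.4 ± 8.88 and Tomm5 at 50.7 ± 2.25, while the receptor Tomm20 stood at 6.61 ± 0.935 (SD, n = 3 each). Neighbours in that order were separate in all MyoCre libraries for 8 of 23 pairs. The block from Timm22 to Timm17b, at 20.2 to 13.5 FPKM, which holds Tomm40, Tomm40l, Timm17a, Timm21, Timm9 and Timm23, was not resolved between neighbours. Among members the level was lower where the longest annotated transcript was longer (Spearman −0.49 across 23 rows, which share their libraries). The same correlation was −0.17 across the 10412 protein-coding genes tested.

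The K15SKO libraries differed among themselves in which members were high. Of the 23 rows, 12 had their highest K15SKO value in K15SKO 1, among them Tomm5, Tomm22, Tomm40, Timm22, Timm10 and Timm10b, 3 in K15SKO 2 and 8 in K15SKO 3, among them Timm8b, Timm44, Timm50, Timm21 and Tomm40l. Measured from each row's MyoCre mean, the median log2 deviation of the members was 0.27, 0.05 and 0.16 in K15SKO 1 to 3, and −0.05 to 0.02 in MyoCre. A list of nuclear-encoded genes of the respiratory chain and citric acid cycle, with Tfam, had medians of −0.33, −0.42 and 0.33 in K15SKO 1 to 3. Of its 14 genes, 13 were found. None of the 13 was separate between the groups. The summed TOM level was highest in K15SKO 1, where this list was below MyoCre. In K15SKO 3 the list stood above MyoCre, as did Timm8b and Timm21. The summed TOM level did so there as deposited (325 against 296 to 300 FPKM) and with median-of-ratios rescaling (314 against 285 to 306). It did not with equal column sums (288 against 291 to 311 FPKM). Macrophage genes stood in the same order as Tomm5 and Tomm22, 377, 211 and 40.3 FPKM in K15SKO 1 to 3. In K15SKO 3, where the macrophage sum was below every MyoCre library, Tomm5 was 61.0 and Tomm22 57.6 FPKM as deposited. With equal column sums they were 54.1 and 51.1 FPKM there, within the MyoCre ranges of 49.0 to 55.2 and 43.6 to 54.6. With median-of-ratios rescaling both stayed above every MyoCre library there. The part of mitochondrial content, slow fibres or macrophages in the members' values was not tested.

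**Figure D3:**
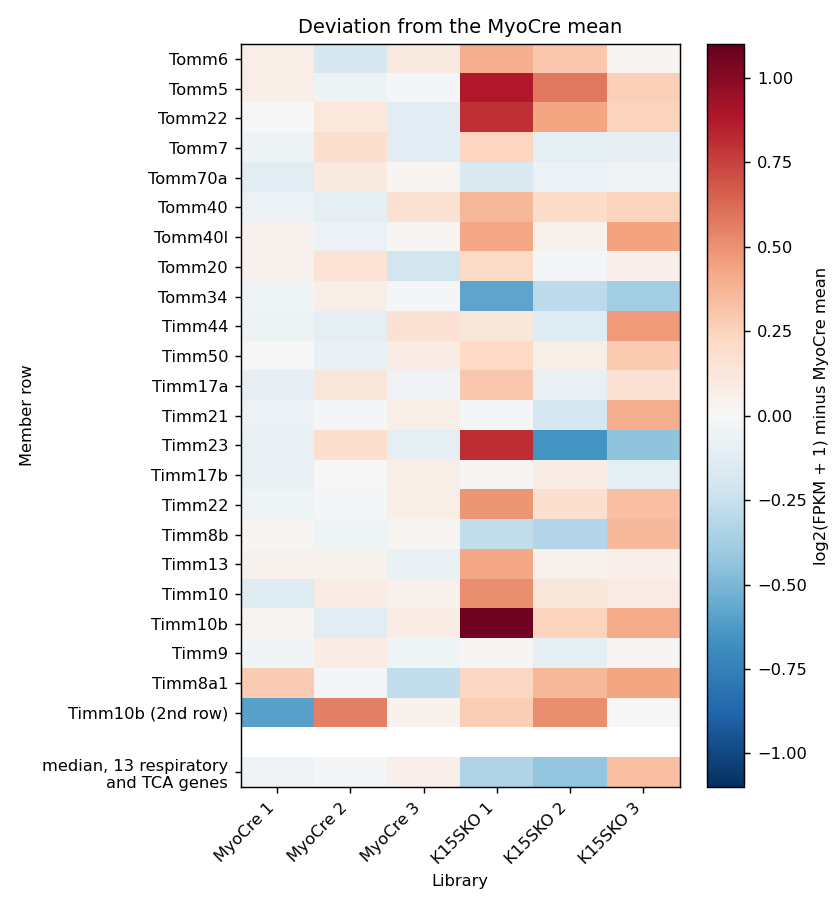
Deviation of each import row from its MyoCre mean on log2(FPKM + 1), by library. The bottom row is the median of 13 nuclear-encoded genes, those of respiration and the citric acid cycle (TCA) with Tfam. Tomm5 and Tomm22 are highest in K15SKO 1 and lowest of the K15SKO libraries in K15SKO 3, whereas the bottom row is −0.33, −0.42 and 0.33 in K15SKO 1 to 3.

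Transcript length moved with the comparison across the whole table. Among 10412 protein-coding genes tested, the median log2 difference was 0.20 for the 451 with a longest transcript under 1000 bases, 0.12 from 1000 to 2000, −0.01 from 2000 to 4000 and −0.11 at 4000 or more. The members in these classes numbered 3, 7, 9 and 4, with medians of 0.24, 0.19, 0.15 and 0.10. Groups did not overlap, with K15SKO higher, for 25.9%, 20.6%, 13.6% and 6.58% of genes in the classes and for 2, 2, 3 and 1 members. The member median was above that of all genes in each class, by the least in the shortest. Length and log2 difference had a Spearman correlation of 0.03 across the 23 members, which share their libraries, and of −0.30 across the 10412 genes. The part of length in the members' differences was not tested.

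**Figure D4:**
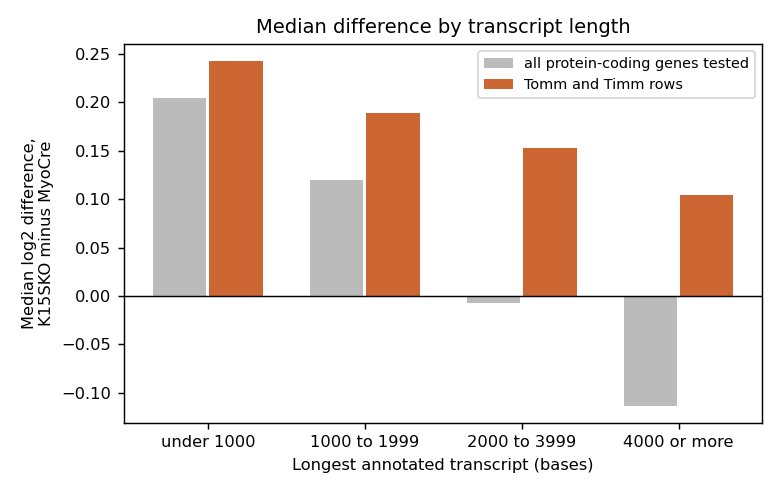
Median log2 difference, K15SKO minus MyoCre on log2(FPKM + 1), by length of the longest annotated transcript, for all protein-coding genes tested (grey) and the Tomm and Timm rows (orange). Grey bars run from 0.20 down to −0.11 and orange bars from 0.24 down to 0.10.

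The partners of these translocases, a list of 34 genes of the outer membrane, intermembrane space, import motor, presequence processing and folding, all had a row and 33 were tested. Of the 33, 0 passed an adjusted p of 0.05 (limma), and 5 were higher and 0 lower at an unadjusted p under 0.05, against 8.43% and 8.12% of all genes. Without overlap as deposited, 9 were higher and 1 was lower in K15SKO, against 13.4% and 11.3% of all genes. The median log2 difference was 0.11, against −0.02 for all genes tested. These partner counts were not repeated with equal column sums. Cox18, which inserts a cytochrome c oxidase subunit into the inner membrane, stood at 11.4 ± 0.608 FPKM against 6.63 ± 0.843 in MyoCre (adjusted p = 0.228). Timmdc1, a complex I assembly factor related to Timm17 and Timm23, was at 35.2 ± 5.53 against 24.6 ± 2.17 FPKM (adjusted p = 0.272).

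Grpel1, the nucleotide exchange factor of the import motor, stood at 27.4, 27.6 and 26.6 FPKM in K15SKO where MyoCre had 22.7, 23.6 and 22.7, and Samm50, which inserts Tomm40 and other beta-barrels into the outer membrane, at 134 ± 5.67 against 111 ± 4.22 FPKM (SD, n = 3 each). Among the partners with lower values, Xpnpep3, an aminopeptidase, was at 1.66 ± 0.157 against 2.10 ± 0.185 FPKM without overlap. Chchd10, an intermembrane space protein, was at 614 ± 142 against 772 ± 75.6 FPKM, Mipep, which trims imported precursors, at 24.1 ± 9.22 against 31.7 ± 3.19 FPKM and Trap1, a matrix chaperone, at 62.6 ± 17.2 against 76.3 ± 10.2 FPKM, all with overlap. Samm50 and Grpel1 thus stood higher in each K15SKO library than in any of MyoCre on the deposited scale. For Chchd10, Mipep and Trap1 the K15SKO 3 value lay within the MyoCre range.

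The calls depended on K15SKO 3. Without it, Tomm5 and Tomm22 passed as higher (limma adjusted p = 0.0174 and 0.0354) and Timm8b as lower (0.0460), 3 of 23 members where 2743 genes, 23.6% of all tested, passed. With array weights, which let limma weigh each library by its noise, Tomm5, Tomm22 and Tomm34 passed (0.0248, 0.0384 and 0.0435), where 20.7% of all genes did. Over all 17 alternatives the adjusted p ran from 0.0174 to 0.581 for Tomm5, from 0.0354 to 0.581 for Tomm22 and from 0.0435 to 0.581 for Tomm34, each with the same direction in 17 of 17. The higher end of each range came from the fit without MyoCre 2.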

How the data were processed

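Quadriceps RNA of 3 MyoCre and 3 K15SKO libraries was sequenced after column isolation and Illumina library preparation, per the labels' protocols. The submitters' processing notes name STAR, Cufflinks, Cuffdiff and mm10; no version or strandedness was found there. The values the authors deposited are taken as FPKM per gene because of these tools and their column sums, the header naming no unit. FPKM keeps no counts, so no counting error is given. Each of the 6 value columns matched the description of a single sample.

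Rows averaging 1 FPKM or more were put on a log2(FPKM + 1) scale, and limma 3.58.1 (R 4.3.3) compared the genotypes by eBayes with trend, two-sided, with Benjamini-Hochberg adjustment across all such rows, after the script had been tested on simulated data. Coordinates, exons and transcript lengths came from GENCODE M21 on GRCm38, the mm10 assembly, where 23193 of 23314 IDs matched without their version. Promoters came from RefSeq (GRCm38.p6), with windows for 20 of 23 member symbols. Tables and plots used Python 3.11.15, pandas 2.3.3, scipy 1.17.1 and matplotlib 3.10.9. The members and lists were chosen with earlier results of these data known. Values in every library are given for core subunits and for the 5 members per direction with the smallest unadjusted p; of the partners, 4 per direction are named. The alternatives were other pseudocounts, filters, scalings and variance models, the fit without genes at 0 in a whole group, a replicate block and each library left out; rescaling to equal column sums, and counts of no overlap without each library and after rescaling, were chosen after seeing the data. Same-numbered libraries are not stated to be paired.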

Additional observations from a re-analysis of the deposited data

How the results depend on the processing

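The count of members past an adjusted p of 0.05 was 0 to 3 when each library was left out in turn and 3 with array weights. Members higher at an unadjusted p under 0.05 numbered 2 to 5 without each library (3.68% to 17.8% of all genes), 2 without MyoCre 1 (3.72%) and 2 without MyoCre 2 (3.68%), 7 with median-of-ratios rescaling (9.26%) and 1 with equal column sums (4.23%); members lower numbered 1 to 2 (3.61% to 23.4%). Quantile scaling gave 6.7% of all genes higher and 10.8% lower. Without overlap, 8 to 10 members were higher and 1 to 2 lower without each library (15.5% to 26.7% and 13.5% to 34.4% of all genes). The counts were 7 and 1 with median-of-ratios rescaling (14% and 13% of all genes) and 4 and 1 with equal column sums (6.55% and 22.7%). The median over the members ran from 0.11 to 0.23. Over all genes the count past the threshold was 3 to 2743 without each library, 3 with no filter, 2398 with array weights and 0 without genes listed at 0 in a whole group (limma; 1930 at an unadjusted p under 0.05). With the replicate block it was 3, with 0 members past; deviations of same-numbered libraries correlated at 0.0024, 0.0851 and 0.0942, too weakly to take the numbers as pairs, and not every library correlated best with its own number. Log2 differences changed sign for Timm17b (0.027 with median-of-ratios rescaling, 0.066 with array weights, −0.041 to 0.046 without each library), Timm23 (−0.55 to 0.19), Timm8b (−0.29 to 0.045), Timm9 (−0.053 to 0.011), Tomm20 (−0.016 to 0.16) and Timm44 (−0.0032 to 0.30) without each library; the cause was not tested. Where a library is left out, one group has 2 samples. Depth is unknown and limits the low members Timm8a1 and Tomm6os most.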

Other observations

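Promoter windows of the members were rich in CG dinucleotides, with a median of 20 per window against 7 over all 32851 RefSeq windows of the same length, and with 58.3% against 52.7% G and C. The core of the site of NRF1, a regulator of nuclear genes for mitochondria, was searched as TGCGCA, which reads the same on both strands. It was found in 5 of 22 member windows (22.7%), those of Timm8b, Timm13, Timm23, Tomm20 and one of Tomm34, and in 7.76% of all windows. The letters AAGGTCA or TGACCTT, bound by oestrogen-related receptors, were found in 3 of 22 (13.6%), those of Timm8b, Timm23 and Timm44, and in 4.72% of all windows. These shares were not adjusted for base composition. Tomm5, Tomm22, Timm22 and Timm10b, the members higher at an unadjusted p under 0.05, held neither set of letters in their windows, which says nothing of the factors themselves. The 3 genes with the oestrogen-related receptor letters had log2 differences of −0.08, −0.10 and 0.15.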
